A study of Mus musculus with 6 samples.

Results

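Intermediate filament and lamin transcripts were followed through 10 genes: Des (desmin), Vim (vimentin), Nes (nestin), Synm (synemin), Krt8 and Krt18 (keratins 8 and 18), Lmna, Lmnb1 and Lmnb2 (the lamins) and Plec (plectin). A probe set was taken when its gene symbol equalled 1 of these names, which gave 26 of the 45037 probe sets tested, and 10 of the 20677 genes that the arrays could name. Plec had 1 further probe set, 1452178_at, which also named Parp10 and was left out by this rule. The RNA came from 6 mouse samples, 1 Affymetrix array each. Of these, 3 held cardiac progenitor cells (CPC) that had grown out of dividing, dedifferentiated cardiomyocytes in prolonged culture, and 3 held freshly isolated cardiomyocytes of adult mice (Ctl). Both groups came from bi-transgenic animals, and the labels do not name the transgenes, ages, animals or cultures. Time in culture was part of the CPC group only, so culture and cell state cannot be told apart. Cells were captured singly, but the number of cells behind an array was not given, so a p-value here covers no more than array-to-array spread, which may be technical.

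Intermediate filaments are rope-like polymers whose protein changes with cell type. Desmin, with synemin as a partner, ties the Z-discs of muscle to each other, to the cell junctions and to the nucleus. Vimentin serves the same scaffold role in mesenchymal cells, nestin in neural and muscle progenitors, and keratins 8 and 18 as an obligate pair in simple epithelia. Lamins form the mesh under the inner nuclear membrane, with A-type lamins from Lmna and B-type lamins from Lmnb1 and Lmnb2. Plectin is a large linker between these filaments, actin and the junctions. In adult heart muscle desmin is the main cytoplasmic filament, and the comparison of CPC with Ctl asks how desmin and the other filament and lamin transcripts differ in cells that grew from dedifferentiated cardiomyocytes.

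Values are log2 RMA intensities, differences are CPC minus Ctl on that scale, and group values are means ± SD with n = 3. The arrays had medians between 7.32 and 7.47. Since no detection calls were used, weak signal was judged against 42 probe sets of olfactory receptors, which heart cells should not express. Their 95th percentile on each array, between 7.89 and 8.48, is called the olfactory reference, and it was chosen after the data were seen. The CPC arrays resembled each other less (Pearson r 0.792 to 0.857 across probe sets) than the Ctl arrays did (0.933 to 0.971), and CPC 3 had the narrowest spread of levels (SD 1.41 against 1.60 to 1.66 on the other arrays). The 3′ minus 5′ difference of the Actb control probe sets was 0.002 to 0.37 in CPC and -0.85 to -0.41 in Ctl, and that of Gapdh was 2.09 to 3.53 and 1.77 to 2.21. The part of these RNA quality values in the results was not tested. All 8 cardiomyocyte markers (Myh6, Tnnt2, Tnni3, Actc1, Myl2, Ttn, Ryr2 and Pln) were lower in CPC, with a mean level per array of 7.10 to 7.72 in CPC and 13.78 to 13.81 in Ctl, so the Ctl label was borne out by its defining genes. Markers of cardiac progenitor cells were not among the lists used. In such samples, fewer cells of a type and less RNA per cell cannot be told apart.

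The desmin transcript fell and the vimentin transcript rose in CPC, while the other 8 genes did not pass the test. Of the 10 genes, 1 was higher, against 1.15% of all genes higher, and 1 was lower, against 4.47% of all genes lower (limma, adjusted p under 0.05). At an unadjusted p under 0.05, 3 members were higher and 1 was lower, where 11% of all genes were higher and 10.2% lower. Of the 26 probe sets, 4 passed (3 of Vim, 1 of Des), where 5.44% of all probe sets passed in either direction, 1.06% higher and 4.38% lower. In 11 of the 26 the CPC arrays all lay above the Ctl arrays, against a background of 19.7% of all probe sets, and in 1 they all lay below, against 11.8%. These 26 are not independent, since several read the same gene. The difference was positive for 8 of the 10 genes, with a median of 0.30 over the members and 0.19 over all genes, so a small positive value does not set a member apart from other genes.

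**Figure D1:**
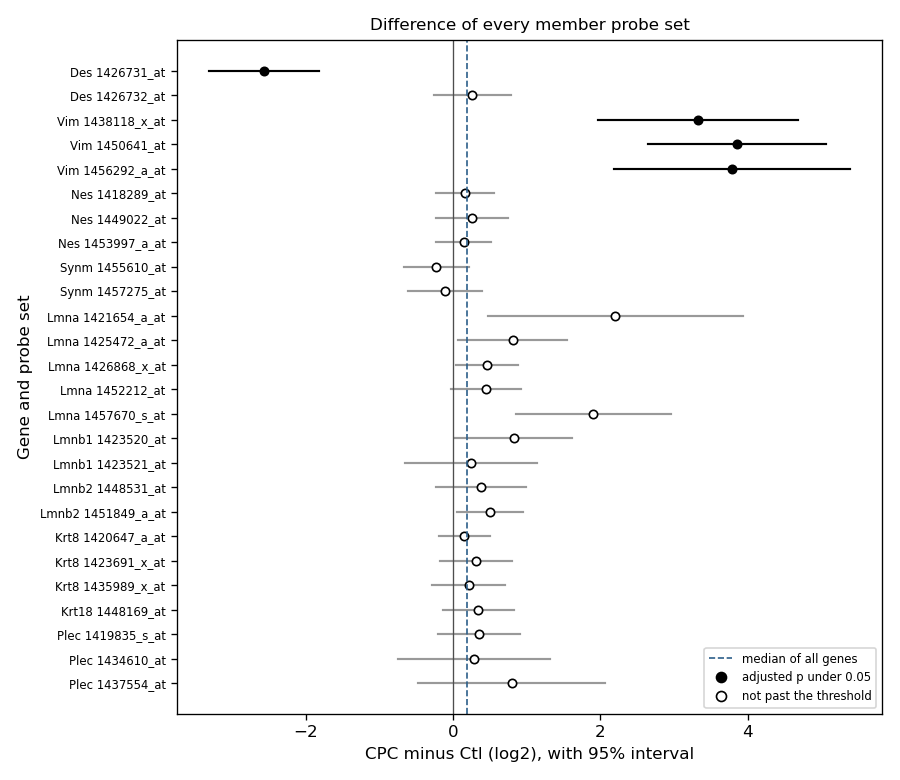
Difference of every member probe set, CPC minus Ctl in log2 units, with its 95% interval. Filled points passed an adjusted p of 0.05 (Des at -2.56 and Vim between 3.33 and 3.85), and the dashed line is the median of all genes, 0.19.

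Desmin was read clearly in cardiomyocytes, and in CPC its probe set was above the array medians but no stronger than the olfactory reference. Des (1426731_at) read 10.46, 11 and 9.95 on the 3 Ctl arrays. It read 7.66, 7.88 and 8.20 on the 3 CPC arrays. Every CPC value lay at least as low as the olfactory reference of its array, and the groups were far apart, with the lowest Ctl array above the highest CPC array. The means were 10.47 ± 0.52 in Ctl and 7.91 ± 0.27 in CPC, so Des fell by 2.56 (SE 0.31, 95% interval -3.31 to -1.82, adjusted p = 0.00713). The measured fold was 5.90, and counted only down to the olfactory reference the fold of the means was 5.004. Such a fold makes no allowance for the spread between arrays. With any 1 array left out the adjusted p stayed between 0.0131 and 0.0395. The other Des probe set, 1426732_at, read 5.35 to 6.02 in CPC and 5.29 to 5.43 in Ctl, below the lower quartile of all 6 arrays, Ctl included (adjusted p = 0.480). It gave no level for desmin even in cells where the first probe set was bright, so desmin rests on 1 probe set.

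Vimentin had the reverse pattern and came close to the brightest probe sets of the arrays in CPC. The probe set with the highest mean, 1438118_x_at, read 13.62, 13.84 and 13.70 in CPC. In Ctl it read 10.05, 9.44 and 11.68. The CPC arrays were nearly level, whereas the Ctl arrays were spread, with Ctl 3 the highest, and the groups did not overlap. The means were 13.72 ± 0.11 and 10.39 ± 1.16, a difference of 3.33 (SE 0.56, 95% interval 1.97 to 4.69, adjusted p = 0.0242, 10.04-fold). Vimentin was not absent from Ctl: every Ctl array read it above the olfactory reference in all 3 probe sets.

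The second Vim probe set, 1450641_at, read 14.04, 14.07 and 12.74 in CPC and 8.97, 10.09 and 10.23 in Ctl. Its difference was 3.85 (SE 0.50, 95% interval 2.64 to 5.06, adjusted p = 0.00921, 14.4-fold). The third, 1456292_a_at, read 13.72, 13.74 and 13.36 in CPC and 9.38, 8.72 and 11.36 in Ctl, a difference of 3.78 (SE 0.66, adjusted p = 0.0275, 13.8-fold). All 3 probe sets separated the groups, and the order of the Ctl arrays differed between them: Ctl 3 stood out in 1438118_x_at and 1456292_a_at but lay beside Ctl 2 in 1450641_at. The array maxima were 14.34 to 14.60, and whether the CPC values were held down by saturation was not tested.

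The 3 Vim probe sets did not rest equally on single arrays. With 1 array left out, 1450641_at kept an adjusted p of 0.00902 to 0.0348. For 1438118_x_at the range was 0.005 to 0.102, and it missed the threshold without any of CPC 1, CPC 2, CPC 3 or Ctl 1. For 1456292_a_at the range was 0.00472 to 0.113, and it passed only without Ctl 3. The difference itself stayed between 2.85 and 4.55 over all 3 probe sets and all 6 omissions.

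Marker lists of other heart cells were set beside vimentin. The 8 fibroblast markers had a mean level per array of 8.65 to 9.09 in CPC and 7.44 to 8.24 in Ctl. Of the 8, 1 passed and was higher (Col1a1, collagen I), beside 1.15% of all genes higher and 4.47% lower. The Col1a1 difference was 3.33 in the probe set read and 1.72 as the mean over its 2 probe sets. No endothelial marker passed. Of the 7 smooth muscle and pericyte markers none passed as higher, and Rgs5 fell by 3.59, a call lost without any array but Ctl 2. An unadjusted p under 0.05 was reached by 3 fibroblast markers and 3 smooth muscle and pericyte markers, all higher. In the latter list 1 was lower, and no endothelial marker reached it, beside 11% of all genes higher and 10.2% lower. Among the Ctl arrays the smooth muscle and pericyte list ranged from 8.35 to 9.08 and the endothelial list from 7.18 to 8.37. Of the 22 markers in these 3 lists, 11 had the Ctl arrays in the order of Vim 1438118_x_at (Ctl 3 highest, Ctl 2 lowest), among them Rgs5, and 11 did not, among them Col1a1. The share of all genes with that order was not counted, so 11 of 22 cannot be read as many or few. The part of fibroblasts, endothelial cells, smooth muscle cells and pericytes in the vimentin values was not tested.

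The 250 bases before the RefSeq start of Des and Vim are shown because these are the members that moved, in opposite directions. Both are on the plus strand of mouse build GRCm38.p6, at chr1:75360042-75360291 for Des and chr2:13574061-13574310 for Vim, written 5′ to 3′, with capitals for the motif matches named next.
Des: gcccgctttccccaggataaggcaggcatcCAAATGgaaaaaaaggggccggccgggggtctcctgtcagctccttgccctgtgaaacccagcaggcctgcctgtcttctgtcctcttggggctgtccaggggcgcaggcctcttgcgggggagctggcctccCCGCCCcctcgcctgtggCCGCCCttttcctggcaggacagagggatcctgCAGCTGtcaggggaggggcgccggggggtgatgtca
Vim: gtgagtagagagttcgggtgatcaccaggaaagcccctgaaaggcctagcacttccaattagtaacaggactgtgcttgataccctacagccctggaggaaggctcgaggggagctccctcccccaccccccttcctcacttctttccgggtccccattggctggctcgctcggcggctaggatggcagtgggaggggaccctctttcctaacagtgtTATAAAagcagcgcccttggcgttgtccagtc
The capitals in Des are 2 E-boxes (CANNTG, the motif of basic helix-loop-helix factors, 220 and 36 bases before the start) and 2 GC boxes (GGGCGG on the reverse strand, 87 and 69 bases before it). The capitals in Vim are 1 TATA box (TATAAA, 32 bases before the start). Both strands were searched. Among 32851 mouse promoter windows of this length, 66.2% held an E-box, 32.7% a GC box and 12.4% a TATA box. Neither window held TGANTCA (the AP-1 site, in 6.75% of windows), the MEF2 motif (2.92%) or the CArG box (1.47%). The GC content was 67.2% for Des and 58.4% for Vim, against a median of 52.4%. A match is only a match of letters and was set against no binding data.

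**Figure D2:**
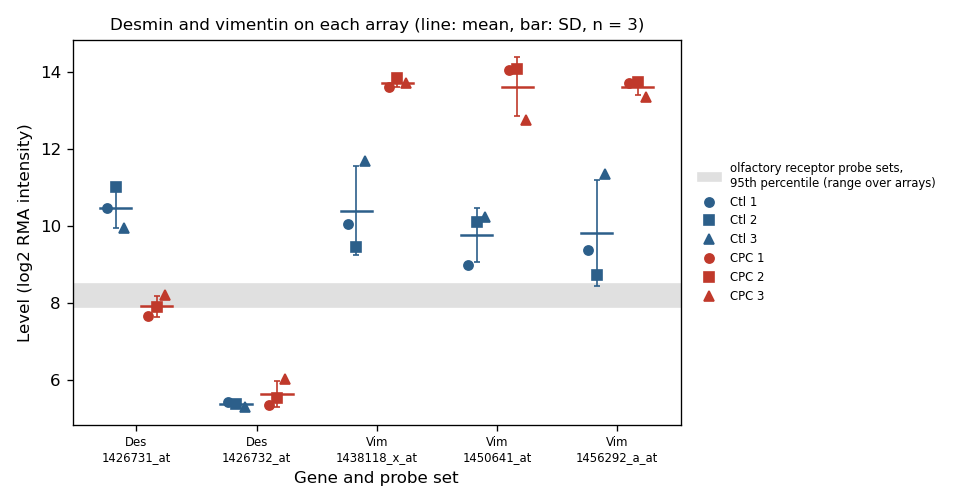
Level of each Des and Vim probe set on every array (log2 RMA intensity), with group means and SD (n = 3), and in grey the olfactory reference over the arrays. Des 1426731_at went from 10.47 in Ctl to 7.91 in CPC, Des 1426732_at stayed below the grey band in both groups, and all 3 Vim probe sets were above it on all arrays.

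By the root mean square difference of centred levels over the 6 arrays, the genes with profiles nearest to Des 1426731_at were Tesc (tescalcin, a calcium-binding protein, 1418744_s_at, 0.054), Adprhl1 (a relative of ADP-ribosylhydrolases, 1455952_at, 0.158) and Mtfp1 (a protein of mitochondrial fission, 1424223_at, 0.160). Tesc read 7.16, 7.43 and 7.81 in CPC and 9.98, 10.64 and 9.59 in Ctl, so it shared the Des order of arrays, with Ctl 2 highest and CPC 1 lowest. In CPC, Tesc and Des both lay under the olfactory reference, which was 7.89, 8.08 and 8.48 on CPC 1, CPC 2 and CPC 3. The reference rose in the same order, so the shared order within CPC carries no usable difference. The genes nearest to Vim 1438118_x_at were Zeb2 (a zinc-finger repressor, 1422748_at, 0.304), Pls3 (plastin 3, which bundles actin, 1423725_at, 0.469) and Col1a2 (a collagen I chain, 1450857_a_at, 0.497). Zeb2 read 10.54, 10.63 and 10.58 in CPC and 7.76, 6.63 and 8.86 in Ctl, again with Ctl 3 highest and Ctl 2 lowest. The distances were larger for Vim than for Des, and they were not scaled to the spread of each gene. All these genes were picked for closeness on these 6 arrays, so a shared array order is no further result.

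Lmna, the A-type lamin gene, had a positive difference in all 5 probe sets but passed in none. With arrays scaled to the Actb and Gapdh control probe sets 3 of the 5 turned negative (-0.53 to -0.17). That scaling moves the difference of every probe set by the same amount, so any small positive difference turns negative. The probe set with the highest mean, 1457670_s_at, read 13.03, 13.60 and 11.97 in CPC. It read 11.30, 10.67 and 10.91 in Ctl. The groups did not overlap, and CPC 3 lay nearest to the Ctl arrays. The means were 12.87 ± 0.83 and 10.96 ± 0.32, a difference of 1.91 (SE 0.43, 95% interval 0.85 to 2.96), with an unadjusted p of 0.00435 and an adjusted p of 0.0684, the closest to the threshold among those that missed it. Without CPC 3 the difference was 2.36 and passed (adjusted p = 0.0152), and over the 6 omissions the adjusted p ran from 0.0152 to 0.223.

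The other Lmna probe sets gave differences of unequal size. The largest, in 1421654_a_at, was 2.20 (SE 0.71, adjusted p = 0.163), from 10.88, 10.76 and 9.14 in CPC and 7.98, 9.24 and 6.96 in Ctl, where Ctl 2 lay above CPC 3. For 1425472_a_at the values were 9.73, 10.48 and 9.52 against 8.97, 9.45 and 8.88, with Ctl 2 just under CPC 3 (difference 0.81, adjusted p = 0.215). The last pair, 1452212_at and 1426868_x_at, differed by 0.45 and 0.46 (adjusted p = 0.262 and 0.212). They read 8.28 to 8.78 and 7.61 to 8.04 in CPC and 7.92 to 8.20 and 7.23 to 7.36 in Ctl, without overlap, and 1426868_x_at lay at or under the olfactory reference on all arrays. The Lmna difference thus ranged from 0.45 to 2.20 with the probe set read. Of the 5, 4 separated the groups, where 19.7% of all probe sets had the CPC arrays all above the Ctl arrays. With probe sets that can match several transcripts left out, Lmna was read from 1452212_at alone (difference 0.45, adjusted p = 0.266).

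The B-type lamins had levels near the olfactory reference and small differences. Lmnb1 1423521_at read 8.80, 7.46 and 7.97 in CPC and 7.48, 8.03 and 7.98 in Ctl, a difference of 0.25 (95% interval -0.65 to 1.14, adjusted p = 0.693). Its other probe set, 1423520_at, read 8.25, 7.22 and 7.19 in CPC and 6.96, 6.58 and 6.65 in Ctl, without overlap. Its difference was 0.83 (95% interval 0.035 to 1.62, adjusted p = 0.230), and it lay at or under the olfactory reference on 2 CPC and 3 Ctl arrays. CPC 1 was the highest array in both, and without it 1423521_at turned to -0.11. Lmnb2 1451849_a_at read 8.28, 8.64 and 8.81 in CPC and 8.13, 8.06 and 8.02 in Ctl, without overlap (difference 0.50, 95% interval 0.0496 to 0.96, adjusted p = 0.208). Lmnb2 1448531_at overlapped, with 8.0 to 8.59 in CPC and 7.58 to 8.28 in Ctl (difference 0.38, adjusted p = 0.413). The interval for Lmnb1 1423521_at allowed a rise or a fall and that of 1423520_at only a rise. Neither passed, so these arrays did not settle the direction of Lmnb1. The direction of both B-type lamins also turned, to -0.73 for Lmnb1 and -0.47 for Lmnb2, when arrays were scaled to the Actb and Gapdh control probe sets, a scaling that moved the median of all genes from 0.19 to -0.79.

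**Figure D3:**
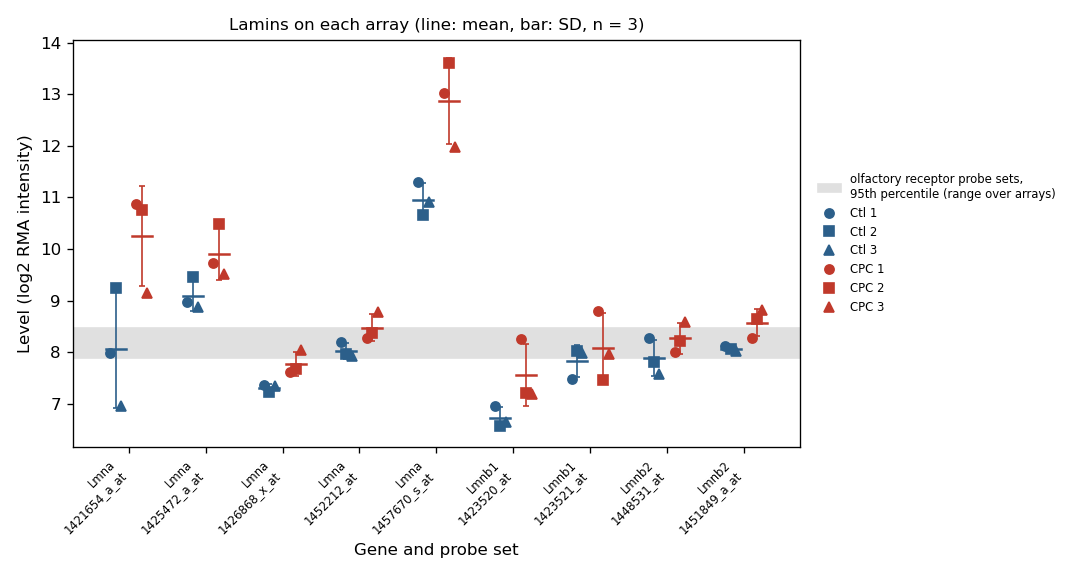
Level of each Lmna, Lmnb1 and Lmnb2 probe set on every array (log2 RMA intensity), with group means and SD (n = 3), and in grey the olfactory reference over the arrays. Lmna 1457670_s_at had means of 12.87 in CPC and 10.96 in Ctl, and the B-type lamin probe sets read between 6.58 and 8.81.

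Synemin, the muscle partner of desmin, did not pass in either probe set. Synm 1457275_at read 8.04, 7.97 and 8.22 in CPC and 8.09, 7.93 and 8.53 in Ctl, and the groups overlapped (difference -0.11, 95% interval -0.61 to 0.40, adjusted p = 0.765). The other probe set, 1455610_at, read 7.23 to 7.63 in CPC and 7.48 to 7.79 in Ctl (difference -0.23, adjusted p = 0.479) and lay at or under the olfactory reference on all arrays. Besides Des, Synm was the only member with a negative difference, and without Ctl 3 that of 1457275_at was 0.067. On 1457275_at 2 of the CPC arrays lay at or under the olfactory reference and the Ctl arrays little above it, so a large fall in synemin could not have been seen.

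Nestin was read weakly in both groups. Nes 1449022_at read 7.36, 7.68 and 7.98 in CPC and 7.51, 7.40 and 7.36 in Ctl (difference 0.25, adjusted p = 0.476). The other Nes probe sets, 1453997_a_at and 1418289_at, read 7.27 to 7.56 and 6.31 to 6.60 in CPC and 7.26 to 7.31 and 6.18 to 6.38 in Ctl. They differed by 0.15 and 0.17 (adjusted p = 0.578 and 0.548), and in Ctl each stayed within a narrow range. All 3 lay at or under the olfactory reference on all 6 arrays, so their signal was no stronger than that of receptors heart cells should lack. Nestin thus did not rise above the reference in CPC, and a difference below it could not have been seen with these probe sets.

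Neither gene of the keratin pair passed. Krt18 1448169_at read 8.87, 9.28 and 9.45 in CPC and 8.94, 8.78 and 8.84 in Ctl, above the olfactory reference on all arrays, with CPC 1 inside the Ctl range. The means were 9.20 ± 0.30 and 8.85 ± 0.08 (difference 0.35, 95% interval -0.13 to 0.82, adjusted p = 0.355). Krt8, its partner, was read by 3 probe sets, all at or under the olfactory reference on every array. Of these 1435989_x_at had the highest mean, at 7.12, 7.44 and 7.76 in CPC and 7.14, 7.25 and 7.29 in Ctl (difference 0.22, adjusted p = 0.542). The others, 1423691_x_at and 1420647_a_at, read 6.48 to 7.07 and 5.33 to 5.43 in CPC and 6.33 to 6.45 and 5.15 to 5.32 in Ctl. Both separated the groups, by 0.31 and 0.16, and did not pass (adjusted p = 0.395 and 0.531). Scaling to the Actb and Gapdh control probe sets turned the sign of Nes (-0.72), Krt8 (-0.76) and Krt18 (-0.63), through the shift it gives to every probe set.

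Plectin varied more within CPC than between the groups. Plec 1437554_at read 9.60, 10.72 and 8.72 in CPC and 8.61, 9.37 and 8.67 in Ctl (difference 0.80, 95% interval -0.48 to 2.07, adjusted p = 0.408). Plec 1434610_at read 8.25, 9.59 and 8.11 in CPC and 8.64, 8.37 and 8.09 in Ctl (difference 0.29, adjusted p = 0.692). CPC 2 was the highest array in both, and in 1419835_s_at it was the lowest of the CPC arrays, at 8.91 beside 9.46 and 9.35 (Ctl 8.63 to 9.16, difference 0.35, adjusted p = 0.399). Without CPC 2 the difference of 1437554_at was 0.28, and under the control probe set scaling it was -0.18.

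**Figure D4:**
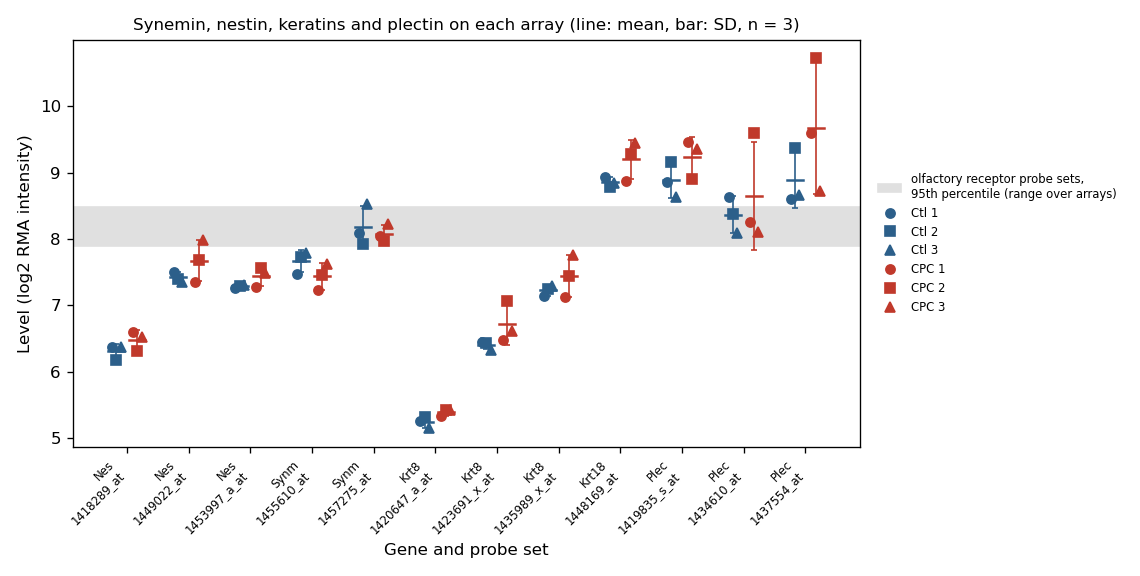
Level of each Nes, Synm, Krt8, Krt18 and Plec probe set on every array (log2 RMA intensity), with group means and SD (n = 3), and in grey the olfactory reference over the arrays. Nes and Krt8 lay at or under the reference, Krt18 lay above it in both groups, and the widest spread was that of Plec 1437554_at in CPC (8.72 to 10.72).

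Other intermediate filament genes (24 keratins, neurofilaments and relatives, all measured) held no member past the threshold, and a median of 0.34 beside 0.19 over all genes. At an unadjusted p under 0.05, 5 were higher and 1 was lower, beside 11% and 10.2% of all genes. The smallest p was that of Krt10, a keratin of the upper epidermis, at 6.80, 7.17 and 7.60 in CPC and 8.36, 8.51 and 7.73 in Ctl (1452166_a_at, difference -1.01, SE 0.30, adjusted p = 0.136). The CPC and Ctl arrays did not overlap for Krt10, and CPC 3 and Ctl 3 lay close together. Without CPC 1, 2 genes of this list were higher, where 339 of all 20677 genes were higher, against 237 with all arrays.

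Among 16 genes for linkers, chaperones and turnover of filaments, 1 rose, 3 fell and 12 did not pass, beside 1.15% of all genes higher and 4.47% lower, with a median of -0.40. At an unadjusted p under 0.05, 2 were higher and 6 were lower, beside 11% and 10.2% of all genes. Dsp (desmoplakin, which anchors desmin at the desmosomes of the intercalated disc) read 8.23, 7.16 and 7.26 in CPC and 13.35, 13.13 and 13.36 in Ctl (1435493_at). It fell by 5.73 (SE 0.31, adjusted p = 0.000428) and passed without any 1 array (highest adjusted p 0.0054). With 2 of its CPC arrays under the olfactory reference and counted only down to it, Dsp was 32.4-fold lower by the means. Klhl24, a ubiquitin ligase adaptor for filament proteins, read 8.43, 10.23 and 7.83 against 12.65, 12.28 and 12.42 (1451793_at). It fell by 3.62 (adjusted p = 0.0238), and the call was lost without CPC 1 or any of the 3 Ctl arrays (highest adjusted p 0.0996). With CPC 3 under the olfactory reference and counted only down to it, Klhl24 was 10.6-fold lower by the means. Macf1, a linker of actin and microtubules of the plakin family like plectin, fell by 2.55 (1428847_a_at, adjusted p = 0.0112). Macf1 missed the threshold without Ctl 1 or Ctl 3 (highest adjusted p 0.0604), and read from a probe set that does not match several transcripts its difference was -1.03 (adjusted p = 0.213).

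Hspb1, a small heat shock protein that binds filaments, rose alone in that list, at 13.73, 14.36 and 14.01 in CPC and 10.65, 11.06 and 10.10 in Ctl (1422943_a_at). Its difference was 3.43 (SE 0.30, adjusted p = 0.00223), and it passed without any 1 array (highest adjusted p 0.017). Cryab, the small heat shock protein known as a desmin chaperone, differed by -0.38 and did not pass (adjusted p = 0.274). The 2 chaperones thus had differences of opposite sign, and the difference between them was not tested.

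Of 16 nuclear envelope partners of lamins, 1 rose, none fell and 15 did not pass, against the same 1.15% and 4.47%, with a median of -0.15. At an unadjusted p under 0.05, 2 were higher and 3 were lower, beside 11% and 10.2% of all genes. Lemd2, an inner nuclear membrane protein of the LEM family, read 7.67, 8.47 and 8.53 in CPC and 6.67, 7.08 and 6.81 in Ctl (1424326_at). Its difference of 1.37 (SE 0.28, adjusted p = 0.0468) passed only just, and the call was lost without any array but CPC 1 (highest adjusted p 0.18). The probe set lay under the olfactory reference on all 3 Ctl arrays and on CPC 1. Counted only from that reference, Lemd2 was 1.23-fold higher by the means. Under the control probe set scaling its difference was 0.39. Lbr, the lamin B receptor, differed by -1.71 and did not pass (adjusted p = 0.0733). Among the enzymes that mature the lamin tail, 4 of 5 were read (Fntb shares its probe set with another gene) and none passed, nor did any at an unadjusted p under 0.05. The median was -0.29, and the smallest p was that of Rce1, the protease that trims farnesylated proteins (difference 0.29, adjusted p = 0.486).

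**Figure D5:**
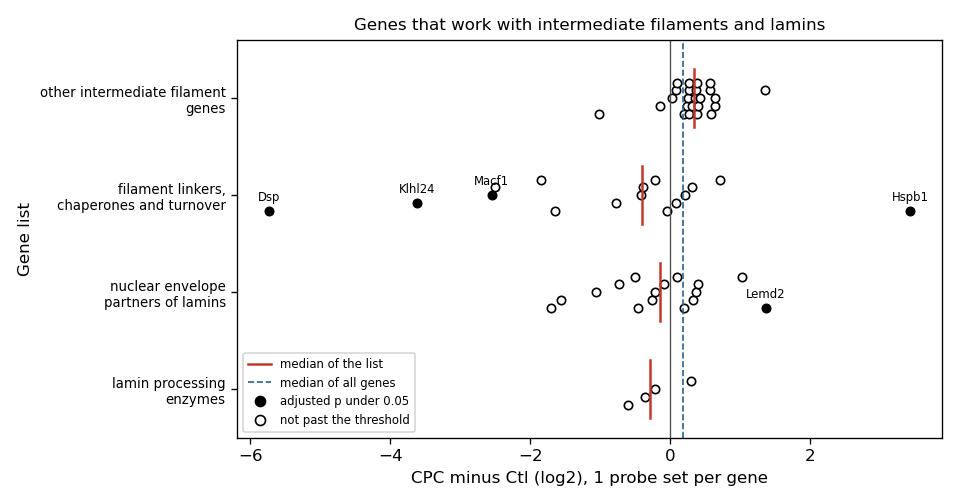
Difference of each gene of the 4 related lists (CPC minus Ctl, log2, 1 probe set per gene), with the list median in red and the median of all genes (0.19) as a dashed line. Filled points passed an adjusted p of 0.05: Dsp, Klhl24 and Macf1 were lower, Hspb1 and Lemd2 were higher.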

How the data were processed

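RNA of 3 CPC and 3 Ctl samples was amplified with a NuGEN kit and hybridized to whole-genome Affymetrix mouse arrays. The expression values deposited by the authors were log2 intensities made with RMA (background correction, quantile normalization, probe set summary). Partek was also named in the submitters' processing notes, and no versions were given. A second table deposited by the authors held their own comparison, as a signed fold change (treated here as a score) and as p-values with step-up adjusted p-values. These were not used, and only its gene symbols and Entrez gene identifiers were.

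Of 45101 probe sets, 64 controls were set aside. Probe sets naming 1 gene numbered 38011, and 3174 symbols were updated through the reference table. Where several probe sets named a gene, the one highest on average over the 6 arrays stood for it (20677 genes). CPC and Ctl were compared with limma 3.58.1 in R 4.3.3 (lmFit and eBayes, two-sided), with Benjamini-Hochberg adjustment over 45037 probe sets and a threshold of 0.05. Arrays have no read depth, so precision is set by their number, 3 per group.

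All members were named with every probe set. From the related lists the rule named the members past the threshold, or the smallest p where none passed. Cryab, Lbr, Col1a1 and Rgs5 were named after their values were seen. The members, lists and markers were chosen with earlier results of these data known. Related lists are described by counts and medians, with no test of a list. The procedure was tested on simulated data. Promoter sequences came from RefSeq (GRCm38.p6), which listed 8 of the 10 members. The genome build behind the array annotation was not given in the sources used here. The 20 alternatives covered scaling, dim probe sets, the variance model, weights, a replicate block, omission of each array, the choice of probe set and stricter thresholds. The weight per group was added after seeing the data.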

Additional observations from a re-analysis of the deposited data

How the results depend on the processing

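Over 20 alternatives, Des kept its direction in all and its call in 18, with a difference from -3.54 (control probe set scaling) to -1.15 (mean over its probe sets, of which 1 was dim in both groups). Vim, read from 1438118_x_at or the probe set a setting put in its place, kept its direction in all and its call in 11, with a difference of 2.35 to 3.97. Vim 1450641_at passed in 17 of the 18 alternatives fitted to it, all but that with no moderation (adjusted p = 0.0857). The 10 genes gave 1 higher and 1 lower member, from 4 probe sets that passed. Higher members numbered 2 when only probe sets above the median level were tested and 2 with the mean over all probe sets of a gene (Lmna was added), 5 with a weight per array, and 0 with a weight per group, with the replicate block, with no moderation, with a fold over 2 required, and at an adjusted p under 0.01. Lower members numbered 0 with no moderation and 0 with a fold over 2 required. Probe sets that passed numbered 13 with a weight per array, 2 with a weight per group, 2 with the replicate block, 0 with no moderation, 1 with a fold over 2 required and 2 at an adjusted p under 0.01. With 1 array left out, higher members numbered 0 to 1 (0 without CPC 1, CPC 2 or Ctl 1, and Lmna in place of Vim without CPC 3) and probe sets 2 to 4. The cause of these changes was not tested. In the fit with a weight per array, CPC 2 weighed 5.92, CPC 1 0.32 and CPC 3 0.23, so CPC was read mostly from 1 array. That fit called 4685 of all 20677 genes higher and 2894 lower. With arrays scaled to the Actb and Gapdh control probe sets, which moved the median of all genes to -0.79, the sign turned for Nes (-0.72), Lmnb1 (-0.73), Lmnb2 (-0.47), Krt8 (-0.76), Krt18 (-0.63) and Plec (-0.18). Since that scaling shifts all differences equally, these turns tell nothing particular to the genes. Lmnb1 also turned with a weight per array (-0.14) and ran from -0.11 (without CPC 1) to 0.56 (without CPC 2) with 1 array left out, and Synm ran from -0.23 (without Ctl 2) to 0.067 (without Ctl 3). None of these was past the threshold in the comparison as reported.

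Over all genes, 237 were higher and 924 lower. These became 139 and 3201 with the control probe set scaling, and 4685 and 2894 with a weight per array. They were 131 and 595 with the replicate block, and 74 and 302 with no moderation. With 1 array left out they ran from 94 to 529 and from 495 to 1145. Deviations from the group mean correlated at -0.047, -0.013 and -0.108 across probe sets for samples of equal number. With so few arrays in a group such deviations depend on each other. These values therefore cannot tell whether samples of equal number share an animal or day. Levels at or under the olfactory reference, as for Nes, Krt8 and Des in CPC, carry no usable difference below it.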
